A study of Rattus norvegicus with 56 samples.

Results

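The 3 microRNAs (miRNAs) known from leukocytes and microglia, rno-miR-142-5p, rno-miR-223-5p and rno-miR-150-5p, were followed in the rat hippocampus from 24 h to 1 y after traumatic brain injury (TBI). They were chosen by name, as 3 of the 367 miRNAs in the deposited count table, for the cell lineage each is known to mark, with earlier results of these data known. Small RNA was sequenced from the hippocampus of 56 rats, 28 with TBI by fluid percussion injury and 28 with sham surgery. Each treatment had 4 rats at each of 7 intervals, which were 24 h, 2 w, 1 m, 2 m, 3 m, 6 m and 1 y after TBI or sham surgery, and each rat was killed at a single interval. Strain and age are not given in the sources used here, and all rats carried the same labels other than treatment and interval. Interval, age at death and any handling shared by an interval cannot be told apart. Each label names its own rat or tube, so the p-values below measure the spread between rats.

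A miRNA is cut from a hairpin precursor, and its seed, bases 2 to 8 of the mature strand, directs it to messenger RNAs that it represses. MiR-142 is made in all leukocytes, microglia included, and is close to absent from neurons and other cells that do not come from the blood lineage. MiR-223 is made by cells of the myeloid line and is richest in neutrophils, and miR-150 is known from mature lymphocytes. In injured brain, neutrophils enter early, while microglia can stay activated for long after. The 3 miRNAs were therefore followed as names for all leukocytes, the myeloid line and lymphocytes, of which the first includes the other 2. Which cells their reads came from in these samples was not tested. In a whole piece of hippocampus, more cells of a type and more RNA per cell also cannot be told apart.

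The arms counted here come from the 5′ side of each hairpin, and the sequences show what the counts refer to. RefSeq (GRCr8) places rno-miR-142-5p at chr10:73055119-73055139 and rno-miR-223-5p at chrX:65151408-65151430, both on the plus strand. In the mature strands the seed is in capitals:
rno-miR-142-5p: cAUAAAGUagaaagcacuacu
rno-miR-223-5p: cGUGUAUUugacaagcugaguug
In the hairpins the counted arm is in capitals:
Mir142: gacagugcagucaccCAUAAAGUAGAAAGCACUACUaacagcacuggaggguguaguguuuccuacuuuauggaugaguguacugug
Mir223: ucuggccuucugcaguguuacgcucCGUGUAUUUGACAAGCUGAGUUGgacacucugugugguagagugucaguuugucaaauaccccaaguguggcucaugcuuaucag
The 2 seeds differ, and 0 of the other mature rat miRNAs among the 724 in the RefSeq table carry either one. The longest run of bases that either mature strand shares with another mature miRNA is 8, so no near-identical copy was found there that could take up its reads. The 3′ arm is known as the more abundant product of the miR-223 hairpin, so counts of miR-223-5p do not give the level of that arm. Of the 367 miRNAs with deposited counts, 309 are named as 5p arms and 5 as 3p arms. The 3′ arms of the 3 hairpins were not analysed here.

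Library totals ran from 69628 reads for TBI rat X747 at 2 m to 12468979 for TBI rat X749 of the same group, and the second lowest total was 2083604. A count of 3 reads stood for 34.4 counts per 1000000 counts of the library (CPM) in X747 and for 0.277 CPM in X749, so X747 says nothing about a miRNA as low as miR-223-5p. Levels are given in CPM scaled over all 56 libraries by the trimmed mean of M-values (TMM). Fold changes between TBI and sham come from the quasi-likelihood test of edgeR, with p-values adjusted over all miRNAs tested and 0.05 as the threshold. At that threshold edgeR called 4 of 233 miRNAs at 24 h and 1 of 240 at 1 m, and 0 at each of the other 5 intervals. At these 5 intervals, taken from 2 w to 1 y, the unadjusted p lay under 0.05 for 21, 17, 12, 11 and 22 miRNAs. The likelihood ratio test of edgeR called 8, 2, 0, 0 and 0 miRNAs in the same order, and DESeq2 called 7, 1, 1, 0 and 0.

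The pattern of calls differed between the 3 miRNAs. No ratio of miR-150-5p or miR-223-5p to miR-142-5p within a library passed the threshold after adjustment. MiR-142-5p was higher after TBI over the 7 intervals together, with log2 fold changes of 0.36 to 0.77 at each interval from 24 h to 6 m, none of which passed alone, and at 1 y it lay inside the sham range. MiR-223-5p had 26 to 61 reads in 3 of 4 TBI rats at 24 h against 0 to 3 in sham, and 0 to 11 reads per library at all later intervals. MiR-150-5p, the most abundant of the 3, showed no called difference between TBI and sham at any interval, while its level differed between the sham groups of the 7 intervals. The plot of CPM by interval shows all 56 libraries for each.

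**Figure D1:**
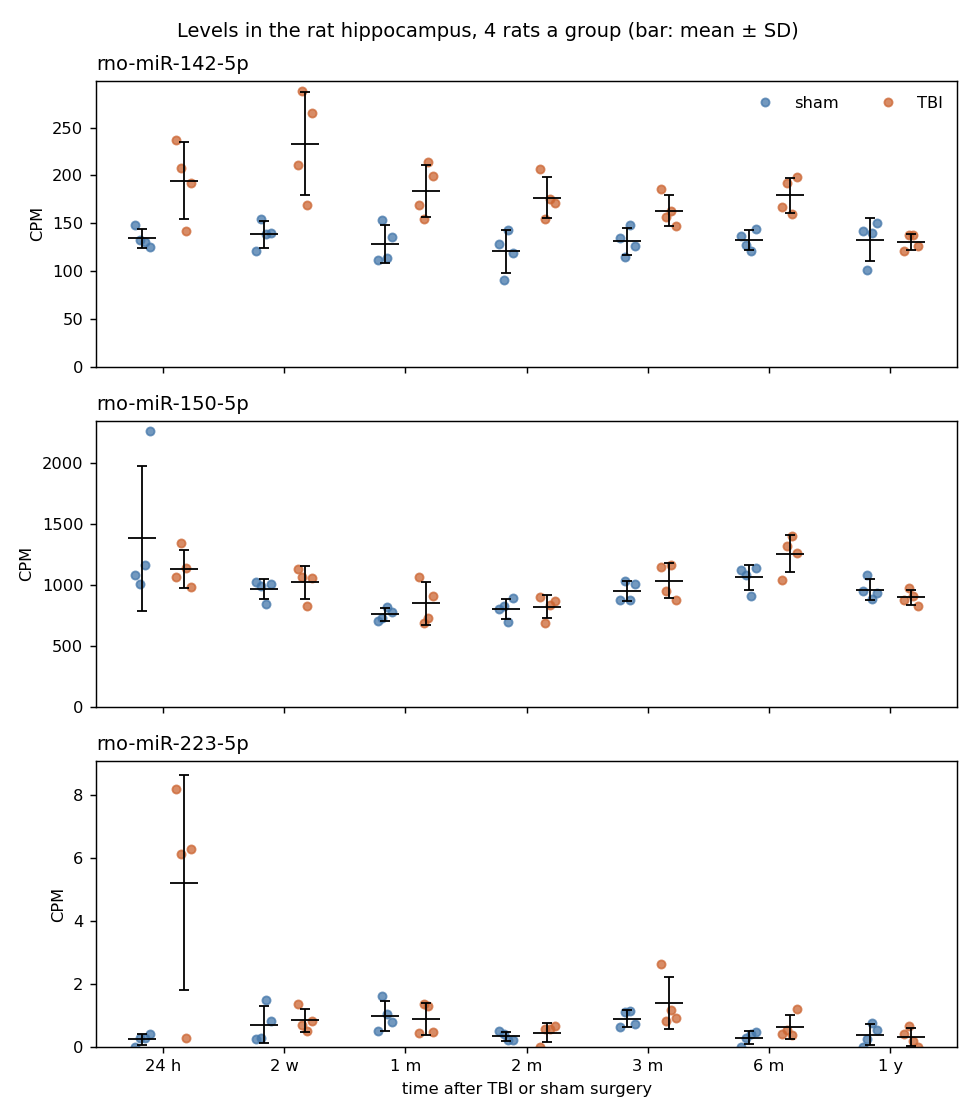
CPM of rno-miR-142-5p (top), rno-miR-150-5p (middle) and rno-miR-223-5p (bottom) in each of the 56 rats, by time after TBI or sham surgery; points are rats, and black bars are the mean and SD of 4 rats. The TBI means of miR-142-5p lie above the sham means from 24 h to 6 m, with overlap of the rats at 24 h and 3 m, and the 1 y TBI rats lie inside the sham range, miR-150-5p overlaps sham throughout, and miR-223-5p stands out in 3 TBI rats at 24 h, at 6.13 to 8.17 CPM.

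MiR-142-5p ranked 115th of the 367 miRNAs by mean CPM and was detected in all 56 libraries, with 18 to 2526 reads. In sham rats its level hardly moved over the year. The sham means ran from 120.5 ± 22.1 CPM (SD, n = 4) at 2 m to 138.5 ± 13.97 at 2 w, and each interval's range overlapped that of its neighbour in the order of means. The sham groups of the 7 intervals were not found to differ by the quasi-likelihood test of edgeR (adjusted p = 0.879).

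At 24 h the 4 sham rats had 125.6, 130.5, 132.0 and 148.6 CPM of miR-142-5p, and the 4 TBI rats 141.6, 192.1, 207.7 and 237.1. The TBI rat at 141.6 CPM, X454, lay inside the sham range, and the other 3 lay above it. At 2 w the sham rats had 120.5, 138.8, 140.0 and 154.6 CPM and the TBI rats 168.8, 210.5, 265.3 and 288.8. The 2 w groups did not overlap, and this was the highest TBI mean of the series, at 233.4 ± 54.1 CPM (SD, n = 4) against 138.5 ± 13.97 in sham.

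At 1 m sham ran from 111.1 to 153.1 CPM and TBI from 154.3 to 213.8, again without overlap, although the nearest rats of the 2 groups lay close together. At 2 m sham ran from 90.8 to 143.3 CPM and TBI from 154.6 to 206.6. The TBI rat at 206.6 CPM was the shallow library X747, whose value rests on 18 reads, and the other 3 TBI rats at 154.6, 170.8 and 175.6 CPM also lay above every sham rat. At 3 m the TBI rats had 147.4, 156.8, 162.4 and 185.9 CPM, and the highest sham rat, at 148.0 CPM, lay just above the lowest of them. At 6 m sham ran from 121.3 to 144.2 CPM and TBI from 159.9 to 197.9. The 6 m groups did not overlap, with means of 132.5 ± 10.1 and 179.3 ± 18.5 (SD, n = 4).

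At 1 y the groups overlapped. The TBI rats had 121.4, 125.9, 137.9 and 138.0 CPM, inside the sham range of 100.8 to 150.2. From 24 h to 6 m, 24 of 24 TBI rats lay above the sham mean of their own interval, and at 1 y 2 of 4 did. Among the TBI groups, only the step from 1 y to the next lowest mean, 3 m, separated the ranges of neighbours in the order of means, and the other TBI groups overlapped each neighbour.

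Tested one interval at a time, miR-142-5p passed the threshold at none of the 7. Its log2 fold change by edgeR was 0.54 ± 0.16 (SE) at 24 h (adjusted p = 0.261), 0.77 ± 0.16 at 2 w (adjusted p = 0.0612), 0.57 ± 0.19 at 1 m (adjusted p = 0.195) and 0.50 ± 0.20 at 2 m (adjusted p = 0.549). At 3 m it was 0.36 ± 0.11 (adjusted p = 0.378), at 6 m 0.44 ± 0.12 (adjusted p = 0.746) and at 1 y -0.04 ± 0.12 (adjusted p = 0.965). Beside these 0 of 7 calls, the share of all miRNAs called was 1.72% at 24 h and 0.417% at 1 m, and 0% at each of the other 5 intervals. By unadjusted p of edgeR, miR-142-5p was below 0.05 at the 6 intervals from 24 h to 6 m. In that order this held for 12 of 233, 21 of 227, 42 of 240, 17 of 236, 12 of 220 and 11 of 224 miRNAs. Among them miR-142-5p ranked 6th, 2nd, 13th, 11th, 5th and 1st. At 2 w the call depended on the test, since miR-142-5p passed by the likelihood ratio test of edgeR (adjusted p = 0.00130), by DESeq2 (adjusted p = 2.42e-04), in a joint edgeR fit of all 56 libraries (adjusted p = 6.78e-04) and by edgeR without TBI 2 w replicate 3, the rat at 168.8 CPM (adjusted p = 0.00901). The joint edgeR fit also called it at 24 h (adjusted p = 0.0304) and at 1 m (adjusted p = 0.0128).

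By exact permutation tests on log2 CPM, 2-sided, TBI exceeded sham in the groups of 2 w, 1 m, 2 m and 6 m with p = 0.0286 each, the smallest p that 4 against 4 rats can give. With scaling by total count only, the exact permutation p was 0.0857 at 1 m and 0.143 at 2 m. At 24 h and 3 m the exact test on TMM-scaled values gave p = 0.0571, and at 1 y p = 0.886. Scaled over the 8 libraries of the interval instead, all 4 TBI rats at 3 m lay above all sham rats. TBI lay above sham without overlap for 3.86% of all miRNAs at 24 h and 3.52% at 2 w. In order from 1 m to 1 y, the share was 5.42%, 2.54%, 2.73%, 0.446% and 2.67%. MiR-142-5p separated in this way at 4 intervals, which held for 0.820% of 244 miRNAs, the other being miR-146a-5p, a brake on inflammatory signaling. Its mean was higher in TBI at 6 of 7 intervals, as it was or more so for 10.7% of miRNAs.

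Over all 7 intervals together, with each interval as its own baseline, miR-142-5p had the lowest p of the 244 miRNAs tested. TBI exceeded sham by 0.44 ± 0.06 (SE) on the log2 scale (edgeR, adjusted p = 8.66e-07). Of all miRNAs 4.51% were called in this comparison, and each of the 11 called was higher in TBI. The rise of miR-142-5p stayed called in every one of 56 fits that left out 1 library (0.41 to 0.45). Whether its TBI effect differed between intervals was not resolved (edgeR with 6 interaction terms, adjusted p = 0.314, against 2.87% of miRNAs called), so the absence of a difference at 1 y is not shown to be a change from the earlier intervals.

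**Figure D2:**
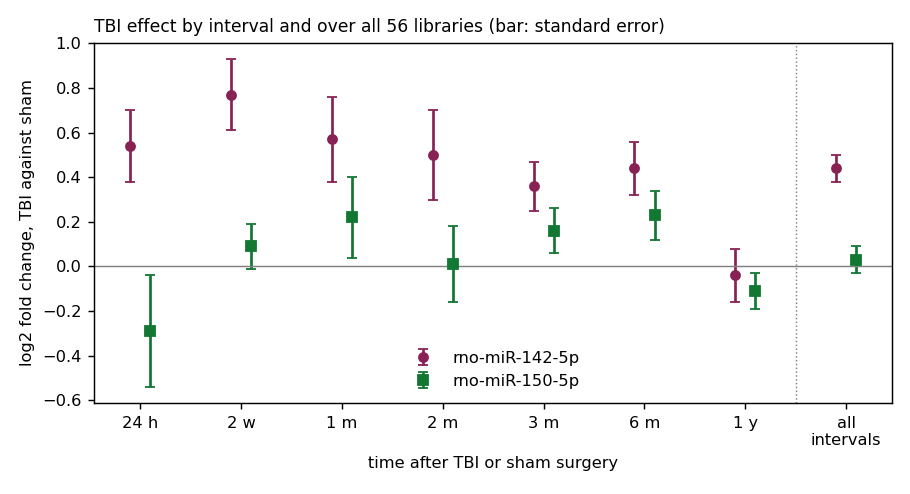
Log2 fold change of TBI against sham by edgeR for rno-miR-142-5p (circles) and rno-miR-150-5p (squares) at each interval (8 rats) and, at the right, over all intervals (56 rats), with SE as bars. MiR-142-5p lies between 0.36 and 0.77 from 24 h to 6 m and at -0.04 at 1 y, while miR-150-5p lies on both sides of 0.

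MiR-223-5p was close to the limit of detection. It had 307 reads in all 56 libraries together, none in 5 of them, and too few to pass the filter on low counts at any single interval. At 24 h the 4 sham rats had 0, 1, 3 and 3 reads, and the 4 TBI rats had 1, 26, 35 and 61. In CPM the 3 high TBI rats lay at 6.13 to 8.17, while X454, at 0.268, lay inside the sham range of 0 to 0.393. These 4 TBI libraries held 40.1% of all reads of miR-223-5p in the series.

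Summed over the rats, the TBI libraries of 24 h held 123 reads, a rate of 5.48 per 1000000 reads (95% exact Poisson interval 4.55 to 6.54), and the sham libraries 7 reads, a rate of 0.235 (0.0945 to 0.484). The ratio of the 2 rates was 23.3 (95% interval 10.98 to 59.2), and it ran from 17.8 to 30.3 when each library was left out in turn. These intervals cover counting error only and not the spread between rats. With 1 TBI rat at the sham level, the exact permutation test over rats gave p = 0.0857, which does not pass. Without the filter, edgeR called miR-223-5p higher at 24 h by 4.38 ± 0.77 (SE) on the log2 scale (adjusted p = 0.00888 over 316 miRNAs). The joint edgeR fit of all 56 libraries kept the filter and gave 4.37 ± 0.59 (adjusted p = 1.46e-07 over 244 miRNAs). The libraries where miR-223-5p was high after TBI let it pass that filter, so the joint call carries little weight. Both fitted values rest on a sham group of 7 reads.

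After 24 h miR-223-5p had 0 to 11 reads in each of 48 libraries, 92 in all TBI libraries and 85 in all sham libraries. The rates per 1000000 reads at 2 w were 0.754 in TBI and 0.735 in sham, at 1 m 0.837 and 0.860, and at 2 m 0.589 and 0.317. At 3 m they were 1.25 and 0.844, at 6 m 0.596 and 0.286, and at 1 y 0.292 and 0.435. The 95% exact Poisson intervals of TBI and sham overlapped at each of these 6 intervals. Such overlap is not a test of the difference, and these ranges leave out the spread between rats. The exact permutation p over rats was 0.171 or more at each. At 2 m, without the shallow library X747, the other 3 TBI rats had 0.555 to 0.651 CPM and the 4 sham rats 0.213 to 0.486, without overlap. The difference in mean log2 CPM was then 0.49 (exact permutation p = 0.0571, the smallest that 3 against 4 rats can give).

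Tests of miR-223-5p over all 56 libraries depended on whether it entered them. It passed the filter on low counts there only with the 24 h and the 3 m libraries present, and the libraries where it was high after TBI were what let it pass, so a call after that filter carries little weight. With the filter, the TBI effect was called as differing between intervals (edgeR, adjusted p = 0.00312), and without any filter on the miRNAs the adjusted p by edgeR was 0.00403. Over all intervals together miR-223-5p was higher in TBI by 1.09 ± 0.32 (SE, edgeR, adjusted p = 0.0352) with the filter and by 1.07 without it (edgeR, adjusted p = 0.0472). With neither the filter nor the 24 h libraries, the difference was 0.29 (edgeR, adjusted p = 0.660).

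The rats at 24 h that were high in miR-223-5p were the same 3 that were high in miR-142-5p, as the bars for the 8 rats of 24 h show. Rat X454 had 1 read of miR-223-5p and the lowest miR-142-5p of the TBI group, yet its miR-155-5p, a miRNA induced in activated macrophages and microglia, was at 51.5 CPM against 7.20 to 10.8 in sham. Its miR-21-5p, which is induced in many injured tissues, was at 19653 CPM, within the TBI range of 15180.1 to 21240.5. The red cell miRNA miR-451-5p, an indication of blood left in the tissue, lay at 60.4 to 118.4 CPM in TBI and 62.7 to 179.0 in sham at 24 h. It differed by -0.03 ± 0.35 (SE, edgeR, adjusted p = 0.997), and the summed level of the 3 red cell miRNAs in the table, 223.2 to 376.3 CPM in TBI and 267.3 to 417.3 in sham, overlapped between the groups.

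**Figure D3:**
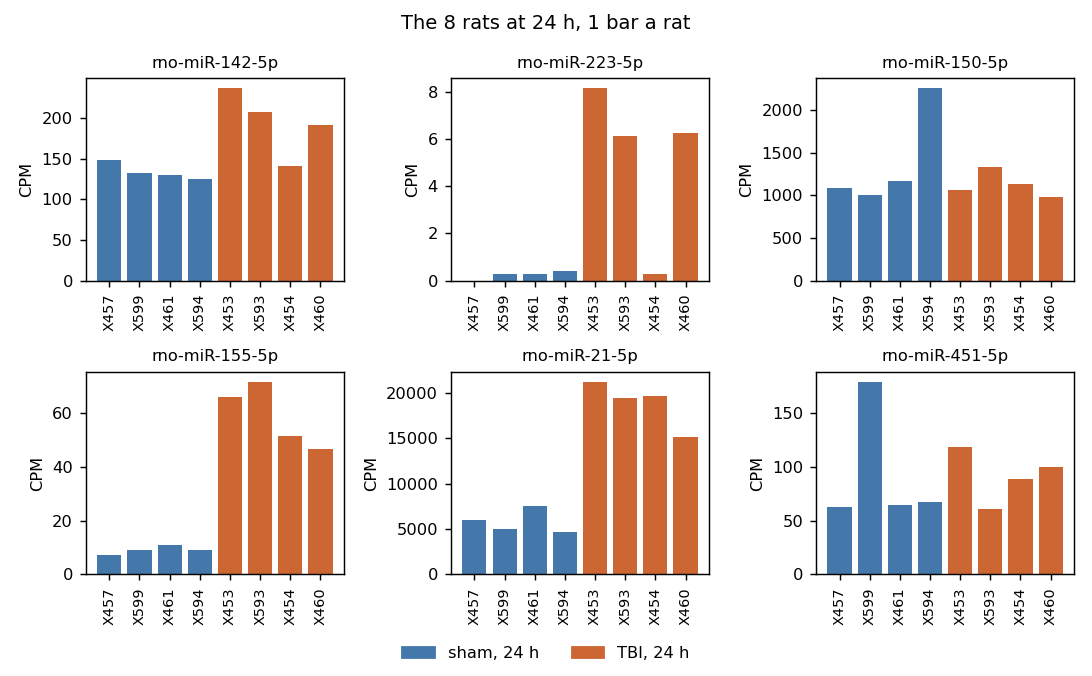
CPM of 6 miRNAs in each of the 8 rats of 24 h, with 1 bar a rat and an axis from 0 in each panel. Above are rno-miR-142-5p, rno-miR-223-5p and rno-miR-150-5p, and below are rno-miR-155-5p, rno-miR-21-5p and the red cell miRNA rno-miR-451-5p. TBI rat X454 is at the sham level for miR-223-5p (0.268 CPM) and inside the sham range for miR-142-5p (141.6 CPM), but above it for miR-155-5p (51.5 CPM) and miR-21-5p (19653 CPM).

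MiR-150-5p ranked 60th of the 367 miRNAs, at a mean of 990.5 CPM over the 56 libraries. At 24 h the sham rats had 1007, 1082, 1164 and 2261 CPM, and the TBI rats 977.7, 1061, 1133 and 1338. A single sham rat, X594, stood far above the other 7. With it the log2 fold change was -0.29 ± 0.25 (SE, edgeR, adjusted p = 0.981), and without it 0.08 (adjusted p = 0.979).

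From 2 w to 1 y the means of TBI and sham stayed close. They were 1018 ± 132.6 CPM in TBI and 964.9 ± 82.6 in sham at 2 w (SD, n = 4), 846.8 ± 175.1 and 756.7 ± 53.5 at 1 m, 820.9 ± 95.3 and 800.9 ± 83.1 at 2 m, and 1031 ± 142.4 and 947.8 ± 82.3 at 3 m. The widest gap was at 6 m, where the TBI rats had 1041, 1261, 1321 and 1395 CPM and the sham rats 909.6, 1077, 1124 and 1133. At 6 m 3 of 4 TBI rats lay above all sham rats, with a log2 fold change of 0.23 ± 0.11 (SE, edgeR, adjusted p = 0.960) and an exact permutation p of 0.114. At 1 y the TBI rats had 828.9 to 973.6 CPM and the sham rats 879.5 to 1081. The groups overlapped at all 7 intervals, and edgeR called miR-150-5p at none of them.

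Over all intervals the difference in miR-150-5p was 0.03 ± 0.06 (SE) on the log2 scale (edgeR, adjusted p = 0.894), and the TBI effect was not found to differ between intervals (adjusted p = 0.595). The level itself did vary with interval. Among sham rats it was lowest at 1 m (756.7 ± 53.5 CPM) and 2 m (800.9 ± 83.1), intermediate at 3 m, 1 y and 2 w (947.8 to 964.9), and highest at 6 m (1061 ± 103.8) and 24 h (1379 ± 591.8, SD, n = 4). The sham groups differed by edgeR (adjusted p = 0.00580), as they did for 27.1% of all miRNAs tested, and neighbours in the order of means overlapped. The call held without any 1 sham library, X594 included (adjusted p up to 0.0212). In the TBI rats the lowest means also fell at 2 m and 1 m and the highest at 6 m, at 1254 CPM.

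Within a library, the ratio of the 2 abundant miRNAs does not depend on scaling. Reads of miR-150-5p per read of miR-142-5p ran from 3.67 to 5.37 in the TBI rats of 2 w and from 6.07 to 8.52 in the sham rats, without overlap. The log2 ratio was lower after TBI by a difference of -0.66 (exact permutation p = 0.0286, adjusted p = 0.300 over 14 ratio tests). The difference was -0.73 at 24 h, and in order from 1 m to 1 y -0.38, -0.54, -0.20, -0.19 and -0.09. At 24 h it was -0.44 without sham rat X594, whose ratio was 18.00, and at 1 y it turned to 0.10 without sham rat X77. No ratio passed after adjustment, the lowest adjusted p being 0.300. The ratio of miR-223-5p to miR-142-5p was 0.00189 to 0.0344 in TBI and 0 to 0.00313 in sham at 24 h (exact permutation p = 0.0857, adjusted p = 0.300).

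**Figure D4:**
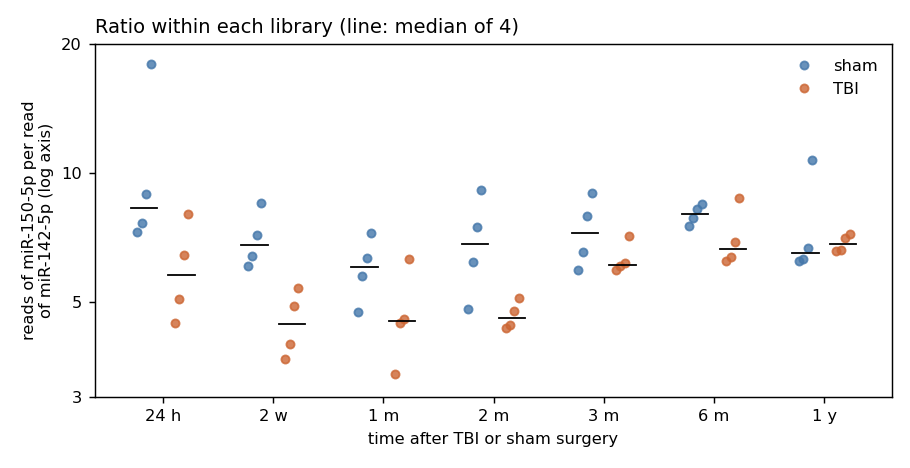
Reads of rno-miR-150-5p per read of rno-miR-142-5p in each of the 56 libraries on a log axis, by time after TBI or sham surgery; points are rats and lines are medians of 4. The TBI and sham rats are separate at 2 w (3.67 to 5.37 against 6.07 to 8.52) and overlap at the other intervals.

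Over the 55 libraries of at least 1000000 reads, miR-142-5p and miR-223-5p were more alike than either was to miR-150-5p. Spearman's rho of log2 CPM was 0.48 between miR-142-5p and miR-223-5p, 0.22 between miR-142-5p and miR-150-5p, and -0.10 between miR-223-5p and miR-150-5p. These describe libraries that share intervals, treatments and handling. After each group's mean was taken away, rho was 0.27, -0.01 and 0.01. The miRNAs most like miR-142-5p were miR-146a-5p (rho 0.68), miR-155-5p (0.65), miR-20a-5p (0.55), miR-21-5p (0.54) and miR-27a-5p (0.53). For miR-223-5p they were miR-155-5p (0.51), miR-142-5p (0.48), miR-483-5p (0.42), miR-27a-5p (0.41) and miR-298-5p (0.38). For miR-150-5p they were miR-770-5p (0.52), the oligodendrocyte miRNAs miR-219a-5p (0.50) and miR-338-5p (0.45), miR-26b-5p (0.43) and miR-664-3p (0.43). With group means taken away, 1 of the 5 stayed among the 5 nearest to each of the 3. For miR-142-5p this was miR-20a-5p, at rank 5, while miR-146a-5p fell to rank 14, miR-155-5p to rank 49 and miR-27a-5p to rank 182. None of the 5 nearest to miR-150-5p was among the 5 nearest to the other 2. The interval differences of miR-150-5p in sham were not accompanied by a call for miR-219a-5p (edgeR, adjusted p = 0.310) or miR-338-5p (adjusted p = 0.430), while miR-770-5p was called (adjusted p = 4.89e-04).

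Other miRNAs known from leukocytes and inflammation moved beside miR-142-5p in part. Of a list of 19 such miRNAs, chosen with earlier results of these data known and without the 3 above, 18 were in the table and 17 were tested over all intervals. Of these, 7 were called higher and 0 lower, beside 4.51% of all miRNAs called. The log2 fold change lay above 0 for 13 of the 17, with a median of 0.07 against -0.01 for all 244 miRNAs. The strongest were miR-146a-5p at 0.64 ± 0.10 (SE, edgeR, adjusted p = 4.88e-06) and miR-155-5p at 1.00 ± 0.18 (adjusted p = 4.16e-05), followed by miR-27a-5p at 0.42 ± 0.09 (adjusted p = 0.00207) and miR-21-5p at 0.38 ± 0.10 (adjusted p = 0.0273). At 24 h 4 of 17 were called higher, beside 1.72% of all miRNAs, namely miR-155-5p at 2.72 ± 0.22 (edgeR, adjusted p = 1.84e-05), miR-21-5p at 1.70 ± 0.18 (1.23e-04), miR-27a-5p at 0.97 ± 0.20 (0.0361) and miR-20a-5p at 0.80 ± 0.17 (0.0361). At 24 h miR-142-5p, at 0.54, had a lower fitted value than these 4. Of the whole list, only 9 of 17 lay above 0 at 24 h, with a median of 0.13 against -0.02 for all miRNAs tested. At 6 m the value of 0.44 for miR-142-5p had the lowest p of all miRNAs but was not called (edgeR, adjusted p = 0.746). There 0 of 224 miRNAs were called. At 1 m 1 of 17 was called, beside 0.417% of all miRNAs, namely miR-146a-5p at 1.41 ± 0.20 (edgeR, adjusted p = 0.00131).

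MiRNAs of the other cell types that a hippocampal sample can hold did not pass in the comparison over all intervals. The miRNAs tested in these lists were 5p arms, apart from miR-486, whose row names no arm. The deposited counts hold 309 rows of 5p arms and 5 of 3p arms, so the lists say little about 3′ arms. The quasi-likelihood test of edgeR called 0 of 3 red cell miRNAs, 0 of 3 of the vessel wall, 0 of 3 of the choroid plexus, 0 of 2 of oligodendrocytes and 0 of 7 of neurons. With 4.51% of all miRNAs called, 0 calls in lists this short lies near the background. Over all intervals the likelihood ratio test of edgeR and DESeq2 also called 0 of each, and an unadjusted p under 0.05 was found for 2 of the choroid plexus and 1 of neurons. The medians of the log2 fold change were -0.11, 0.07, -0.41, -0.01 and -0.01 in that order. The choroid plexus miRNAs varied widely between rats, with summed levels of 2591 to 20829.9 CPM in the sham rats of 3 m and 3284 to 4138 in TBI. At 1 m, where miR-142-5p stood at 0.57, the log2 fold changes of the red cell miRNAs miR-144-5p and miR-451-5p were -1.51 ± 0.46 (SE, edgeR, adjusted p = 0.195) and -1.21 ± 0.43 (adjusted p = 0.201). Their list summed to 254.0 to 358.7 CPM in TBI and 210.3 to 678.2 in sham. The oligodendrocyte miRNA miR-219a-5p differed there by -0.96 ± 0.26 (SE, edgeR, adjusted p = 0.144), and at 1 m the likelihood ratio test of edgeR and DESeq2 each called 1 red cell and 1 oligodendrocyte miRNA. At 6 m, where miR-142-5p had the lowest p of all miRNAs but was not called, miR-144-5p and miR-451-5p lay the other way. They were at 1.19 ± 0.43 (SE, edgeR, adjusted p = 0.746) and 0.75 ± 0.32 (adjusted p = 0.881). The red cell list summed to 257.7 to 574.4 CPM in TBI and 221.6 to 324.4 in sham. An unadjusted p under 0.05 was found for 2 of the 3 red cell miRNAs at 1 m and for 2 of 3 at 6 m. The part of blood left in the tissue in the levels of the 3 miRNAs was not tested beyond these values.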

How the data were processed

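Small RNA libraries (NEBNext) were made from total RNA of hippocampal tissue. The authors sequenced them on a NextSeq550, converted reads with bcl2fastq 2.20.0.422 (submitters' processing notes) and assigned them to mature miRNAs of miRBase with miRDeep2. They deposited raw counts of 367 miRNAs in 56 libraries, not normalized. How reads that match several miRNAs were divided is not given in the sources used here.

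The members and lists were chosen with earlier results of these data known, among them the study's own reporting of miR-142-5p and miR-223-5p from these rats. Besides the members, the miRNAs named were the 5 most like each member and up to 4 per list with the lowest p. The fits used edgeR 4.0.16 in R 4.3.3 (filterByExpr, TMM, quasi-likelihood test, Benjamini-Hochberg adjustment), on the 8 libraries of an interval or on all 56 with interval as a term. The SE is the log2 fold change over the square root of F. CPM used TMM over all 56 libraries, and log2 CPM a prior count of 2. Exact permutation tests were 2-sided (scipy 1.17.1). A pseudocount of 0.5 was added to counts in ratios. The fits were run on simulated counts whose changes were larger than those of miR-142-5p and fell on miRNAs more abundant than miR-223-5p. That run does not show how well the fits find changes like theirs. Alternatives were other scalings (DESeq2 1.42.0 size factors, total count), no filter or a stricter one (10 counts or more in each library), DESeq2 or edgeR's likelihood ratio test, a joint fit, and leaving out each library or interval. A fit with neither filter nor 24 h libraries, TMM over the 8 libraries of an interval, and a block on the S number of the titles at 1 y were added after seeing the data. No 2 libraries of a group agreed within sampling noise (84 pairs, lowest chi-square per degree of freedom 17.5). Depth was 69628 to 12468979 reads per library, with 1 library under 1000000.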

Additional observations from a re-analysis of the deposited data

Results flagged for a closer look

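The TBI effect on miR-223-5p was called as differing between intervals (edgeR with 6 interaction terms, adjusted p = 0.00312, or 0.00403 without a filter on low counts). The miRNA passed that filter only with the 24 h and 3 m libraries present, and libraries where it was high after TBI let it pass. The call after the filter therefore carries little weight. There were 123 reads in TBI against 7 in sham at 24 h, and 92 against 85 in the 48 later libraries. At 24 h 1 TBI rat lay at the sham level, and the exact permutation test over rats gave p = 0.0857. In sham rats at 24 h, X594 had 2261 CPM of miR-150-5p, set apart from the other 3 sham rats at 1007 to 1164 CPM. Its library held 7153505 reads, and its 2 oligodendrocyte miRNAs summed to 2529 CPM, within the 1629 to 3315 CPM of its group. In TBI rats at 2 m, X747 had 0 CPM of miR-223-5p, set apart from the other 3 at 0.555 to 0.651 CPM. A count of 3 reads in that library of 69628 reads would have been 34.4 CPM. Over the 14 groups and the 3 miRNAs, 42 sets of 4 values were examined for a rat set apart in this way. Of these, 2 had one, where chance gives about 2.1 (1 in 20).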

How the results depend on the processing

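The rise of miR-142-5p over all intervals kept its direction and its call under every alternative that was run, as did the sham differences of miR-150-5p (adjusted p from 2.13e-04 to 0.0202). For miR-142-5p the joint fit gave 0.54 at 24 h, 0.75 at 2 w and 0.52 at 1 m, all called, and the likelihood ratio test and DESeq2 both gave 0.77 at 2 w, called. Without 1 library its 2 w value was 0.65 to 0.89, called once. Its exact permutation p at 1 m and 2 m rose to 0.0857 and 0.143 with scaling by total count only, and with 3 against 4 rats no such p can fall below 0.0571. The call of miR-223-5p over all intervals was lost with total count only (1.07), the likelihood ratio test (0.90), without the 2 m interval (1.12), without 6 m (1.10) and with neither filter nor 24 h libraries (0.29), and its range without 1 library was 0.92 to 1.23. It was not testable with at least 10 counts demanded, nor, with the filter, without the 24 h or the 3 m interval, and DESeq2 gave it no adjusted p. The cause of these changes was not tested.

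The number of miRNAs called at 24 h was 8 in the joint fit. At 2 w it was 8 by the likelihood ratio test, 7 by DESeq2 and 4 in the joint fit, against 0. At 1 m it was 2 without a filter, 5 by both other tests and 37 in the joint fit, against 1. At 2 m it was 2, 1 and 2 by the likelihood ratio test, DESeq2 and the joint fit, and DESeq2 called 1 at 3 m. Over all intervals, 11 became 5 with total count only, 6 with the stricter filter, and 3, 5, 7 and 7 without 24 h, 2 w, 1 m and 3 m. The interaction test called 12 and 11 by the likelihood ratio test and DESeq2, against 7. Without 1 library these numbers ran from 2 to 5 at 24 h, 0 to 6 at 2 w, 1 to 7 at 1 m, 0 to 2 at 2 m, 0 to 1 at 1 y, 4 to 15 over all intervals, 5 to 18 for the interaction and 39 to 81 in sham.

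Differences that were not called changed sign in a few cases. For miR-150-5p at 2 m, total count only gave -0.09 in both tests, and for miR-223-5p at 2 m a prior count of 0.5 gave -0.0042. Without 1 library, edgeR values ran from -0.44 to 0.08 for miR-150-5p at 24 h, -0.04 to 0.11 at 2 m, and -0.12 to 0.05 for miR-142-5p at 1 y. Differences in mean log2 CPM ran from -0.14 to 0.05 for miR-142-5p at 1 y, -0.32 to 0.08, -0.03 to 0.49 and -0.45 to 0.15 for miR-223-5p at 1 m, 2 m and 1 y, and -0.34 to 0.05 and -0.04 to 0.12 for miR-150-5p at 24 h and 2 m. The log2 ratio of miR-150-5p to miR-142-5p ran from -0.16 to 0.10 at 1 y, and that of miR-223-5p to miR-142-5p, for 2 w, 3 m and 1 y in order, from -0.64 to 0.07, -0.04 to 0.41 and -0.91 to 0.31.

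The titles carry an S number from a sample sheet, but the sequencing run is not labelled. What libraries with the same S number share is not labelled either, so whether treatment and run coincide at any interval cannot be told. Only at 1 y did both groups hold the same 4 S numbers, and at the other intervals no number occurred in both groups, so no block could be fitted. With the S number as a replicate block at 1 y, chosen after seeing the data, edgeR called 0 miRNAs and gave -0.02 for miR-142-5p and -0.11 for miR-150-5p, again not called. Deviations of the 4 same-numbered pairs from their group means correlated at -0.17 to 0.33 across 244 miRNAs, and 1 of 4 TBI libraries was closest to the sham library of its own number. Depth limits miR-223-5p most, since a rate under about 1 read per 1000000 leaves a few reads per library.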
